A study of Mus musculus with 17 samples.

Results

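Ephrins, Eph receptors, Slits, Robo receptors, netrins, netrin-G proteins, UNC5 receptors and DCC form the families considered here. They were picked by gene symbol alone from a table of transcript levels in the adult mouse frontal cortex. The pattern of symbols found 39 genes among 48440 in the table, and 36 of the 39 were abundant enough to test. Polyadenylated RNA was sequenced from 17 male C57BL/6J mice at postnatal day 189. The 9 mice of the Poly(I:C) group were offspring of dams injected intraperitoneally on gestational day G12.5 with 20 mg/kg Poly(I:C). Poly(I:C), dissolved here in saline, is a synthetic double-stranded RNA that innate antiviral receptors recognise. The 8 mice of the saline group were offspring of dams given saline. Dams of both groups were 10 weeks old at mating. The series asks which transcripts of the adult frontal cortex differ after maternal immune activation, the model in which an immune stimulus is given during pregnancy. The labels mention 11 dams but do not tie offspring to litters, so any littermates were treated as independent animals in every p given here.

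These families steer growing axons. Ephrins are membrane-bound ligands, the A class anchored by a lipid and the B class spanning the membrane, and they bind the Eph receptor tyrosine kinases on a neighbouring cell, with signals passing in both directions. Slits are large secreted proteins that repel axons through Robo receptors, whereas netrins attract axons through DCC and repel them through UNC5 receptors. In the mature cortex Eph and ephrin proteins also act at dendritic spines, on astrocyte processes and in blood vessels, and the netrin-G proteins, which are held on axons by a lipid anchor, bind postsynaptic partners.

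Levels are given as TPM, a transcript abundance scaled by length and to the same total in each library, so levels of different genes can be set beside each other. The depth of each library is unknown because TPM does not keep it. Differences are Poly(I:C) minus saline on the log2(TPM + 1) scale, on which a given ratio looks smaller for a gene of low level. In whole tissue, fewer cells of a type and less RNA per cell cannot be told apart. Markers of cortical excitatory neurons were present in all 17 libraries: the vesicular glutamate transporter Slc17a7 lay between 720.2 and 842 TPM and the cortical transcription factor Tbr1 between 67.8 and 88.6 TPM. The summed TPM of 4 such markers was lowest of each group in replicate 7, at 2564.5 in Poly(I:C) and 2586.8 in saline. The other libraries ranged from 2664 to 2873 in the Poly(I:C) group and from 2698 to 2837 in the saline group. The libraries numbered 7 in each group stood apart by markers of neighbouring tissue. Poly(I:C) replicate 7 had a summed TPM of 426 for 11 striatal projection neuron markers, where the remaining ones of its group ranged between 255 and 339 and the saline libraries between 254 and 283. The same library had 3150.4 for 7 oligodendrocyte markers, against 1517 to 2152 in the other Poly(I:C) libraries and 1638 to 2172 in the saline libraries. Saline replicate 7 had 442 for 12 olfactory bulb markers, against 264 to 302 in the other saline libraries and 207 to 294 in the Poly(I:C) libraries. With all libraries included, all 11 striatal markers had higher means in the Poly(I:C) group and all 9 tested olfactory markers lower ones. These directions rest in part on the libraries numbered 7. Without both, the difference in mean TPM changed direction for some markers, among them Rgs9 of the striatal list and Cdhr1, Th and Dlx1 of the olfactory list. No marker of the striatal list was at 0 in any library, and of the olfactory list Eomes alone was at 0 in at least 1 library. For guidance genes and the signalling genes named below, differences that changed sign or moved by over 1.5 times without both libraries are given with and without them.

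The adult frontal cortex expressed nearly the whole guidance repertoire, over a wide range of levels. Of the 39 genes, 4 had a mean above 50 TPM over the 17 libraries, 13 lay between 10 and 50 TPM, 19 between 1 and 10 TPM and 3 below 1 TPM. The 4 most abundant were the EphB class receptor Ephb6 at 201 TPM, the netrin receptor Unc5a at 103 TPM, the receptor Epha4 at 76.1 TPM and the ligand Efna3 at 75.7 TPM. The 3 lowest, Epha1 at 0.0553 TPM, Efna4 at 0.173 TPM and Epha2 at 0.431 TPM, did not reach 1 TPM in any library and were not tested. Of the 36 tested genes, 35 were at or above 1 TPM in all 17 libraries, and Epha3 was in 16. The plot of levels by library shows the spread within each class.

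**Figure D1:**
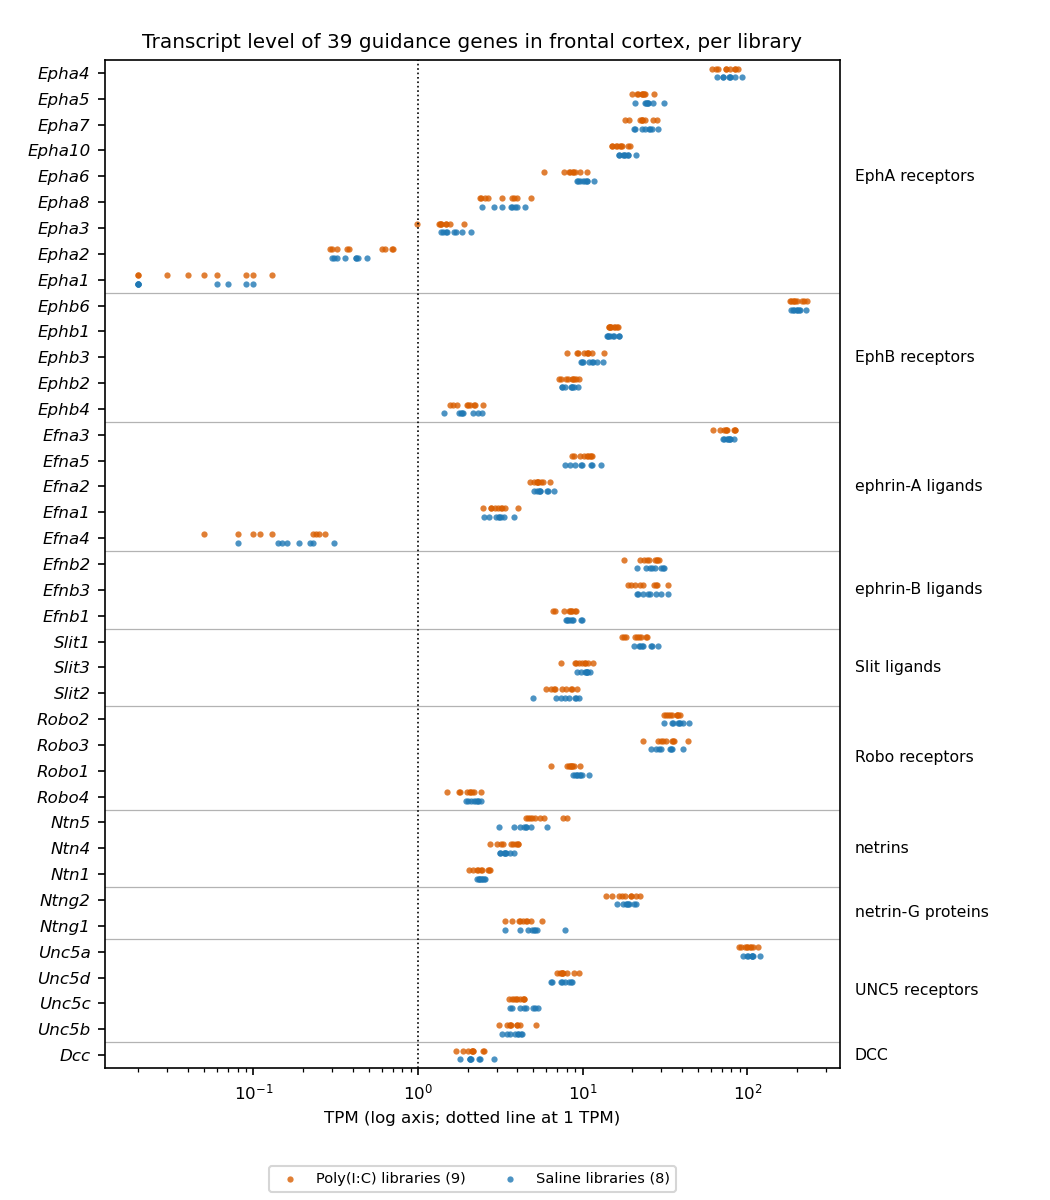
Level of each of the 39 genes in TPM (log axis) in the 9 Poly(I:C) libraries (orange points) and the 8 saline libraries (blue points), grouped by role and ordered by mean level. Ephb6, Unc5a, Epha4 and Efna3 lie above 50 TPM, the points of Epha1, Epha2 and Efna4 lie left of the dotted line at 1 TPM, and the ranges of the 2 groups overlap for every tested gene.

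Among Eph receptors, transcripts of members without kinase activity made up more than the rest together. Ephb6, whose kinase domain is catalytically inactive, ran from 181 to 229 TPM with a median of 196 TPM in the Poly(I:C) libraries and from 185 to 227 TPM with a median of 199 TPM in the saline libraries. With Epha10, the other Eph receptor known to lack kinase activity, it held 56.0 ± 2.53% of the summed Eph receptor TPM in the Poly(I:C) group (n = 9, SD) and 55.1 ± 1.89% in the saline group (n = 8, SD). The remaining 12 Eph receptors summed to 171 ± 13.1 TPM (n = 9, SD) and 179 ± 14.7 TPM (n = 8, SD). Epha4, which binds ephrins of both classes, was the most abundant of these, followed by Epha5 at 24.0 TPM, Epha7 at 23.5 TPM, Ephb1 at 15.1 TPM, Ephb3 at 10.7 TPM, Epha6 at 9.30 TPM and Ephb2 at 8.35 TPM. Epha8 at 3.40 TPM, Ephb4, a receptor of venous endothelium, at 1.97 TPM and Epha3 at 1.52 TPM were the lowest of the tested receptors.

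The ephrin-A class was represented mainly by Efna3, which held 79.8 ± 2.48% of its summed TPM in the Poly(I:C) group (n = 9, SD) and 80.1 ± 1.82% in the saline group (n = 8, SD). Efna5, a ligand known for mapping sensory projections, followed at 10.2 TPM, with Efna2 at 5.55 TPM and Efna1 at 3.09 TPM. Of the membrane-spanning B class, Efnb2, which is also an arterial endothelial protein, stood at 26.0 TPM, Efnb3 at 25.2 TPM and the X-linked Efnb1 at 8.36 TPM. Summed over all 8 ephrins the level was 152 ± 9.32 TPM in the Poly(I:C) group (n = 9, SD) and 157 ± 10.1 TPM in the saline group (n = 8, SD). Eph receptors summed to 388 ± 22.5 TPM (n = 9, SD) and 398 ± 24.8 TPM (n = 8, SD).

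In summed level the 4 Robo receptors exceeded the 3 Slits, a comparison that takes no account of which proteins bind each other. Nell2, from the Slit and Robo part of the signalling list described below, averaged 234 TPM and is in neither sum. The 3 Slits summed to 38.2 ± 4.13 TPM in the Poly(I:C) group (n = 9, SD) and 42.1 ± 4.01 TPM in the saline group (n = 8, SD), of which Slit1 held 54.8 ± 3.29% and 56.8 ± 2.62%. The 4 Robo receptors summed to 78.1 ± 5.79 TPM (n = 9, SD) and 81.4 ± 5.82 TPM (n = 8, SD). Robo2 at 36.3 TPM and Robo3, the divergent member known from axons that cross the midline, at 32.3 TPM together held 86.7 ± 1.08% and 85.5 ± 1.2% of this. Slit3 stood at 10.0 TPM, Slit2 at 7.68 TPM, Robo1 at 8.91 TPM and Robo4, an endothelial receptor, at 2.08 TPM.

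Netrins and UNC5 receptors had the ligand and receptor sums farthest apart in ratio, taking no account of which proteins bind each other. The 3 netrins measured, Ntn5 at 5.08 TPM, the laminin-binding Ntn4 at 3.46 TPM and the classical attractant Ntn1 at 2.41 TPM, summed to 11.6 ± 1.55 TPM (n = 9, SD) and 10.3 ± 1.01 TPM (n = 8, SD). UNC5 receptors summed to 117 ± 8.20 TPM (n = 9, SD) and 121 ± 8.15 TPM (n = 8, SD), and Unc5a alone held 86.4 ± 1.5% and 86.9 ± 0.978% of that. Unc5d stood at 7.73 TPM, Unc5c at 4.24 TPM and Unc5b at 3.85 TPM. Dcc, the receptor for attraction, ran from 1.69 to 2.5 TPM with a median of 2.13 TPM in the Poly(I:C) group and from 1.79 to 2.88 TPM with a median of 2.08 TPM in the saline group. The ratio of Unc5a to Dcc was 48.0 ± 6.17 (n = 9, SD) and 48.4 ± 6.52 (n = 8, SD). Of the netrin-G proteins, Ntng2 at 18.4 TPM exceeded Ntng1 at 4.68 TPM. Their postsynaptic partners Lrrc4, which binds Ntng2, and Lrrc4c, which binds Ntng1, stood at 59.1 and 67.6 TPM.

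No guidance gene passed the test between the prenatal groups after adjustment over all genes. Of the 36 tested, 27 had lower and 9 higher means in the Poly(I:C) group, with a median difference of -0.065. Epha6, Robo1 and Slit1 had the smallest p among the lower ones, and Ntn5 was the 1 gene under an unadjusted p of 0.05 that was higher. By limma with Benjamini-Hochberg adjustment over 14144 genes, 0 of 36 passed an adjusted p of 0.05, beside 0.0% of all tested genes. Under an unadjusted p of 0.05 there were 4 of 36, or 11.1%, beside 8.75% of all tested genes. The 3 lower genes (8.33% of 36) stand beside 7.85% of all tested genes, close to the background as deposited. The higher share rests on 1 gene (2.78%), beside 0.898%. Of all tested genes 71.0% had a lower mean in the Poly(I:C) group, beside 75.0% of the guidance genes. After median-of-ratios scaling, which levels the median gene ratio between libraries, these shares were 50.9% and 63.9%, and the median guidance gene differed by -0.031. Under it 4 of 36 guidance genes (11.1%) were under an unadjusted limma p of 0.05, beside 7.34% of all tested genes. Again 3 were lower (8.33%, beside 3.46%) and 1 was higher (2.78%, beside 3.87%). That scaling moved the median of all tested genes from -0.035 to -0.0014. Group ranges overlapped for all 36 guidance genes, and the share of all tested genes without overlap was 0.0141% in each direction. The count under an unadjusted p of 0.05 was 9 of 36 without saline replicate 6, a larger share than the 12.1% of all tested genes. It was 2 (5.56%), Epha6 and Robo1, both lower, without both libraries numbered 7. There 5.79% of all tested genes were under that p, 4.91% lower and 0.884% higher.

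**Figure D2:**
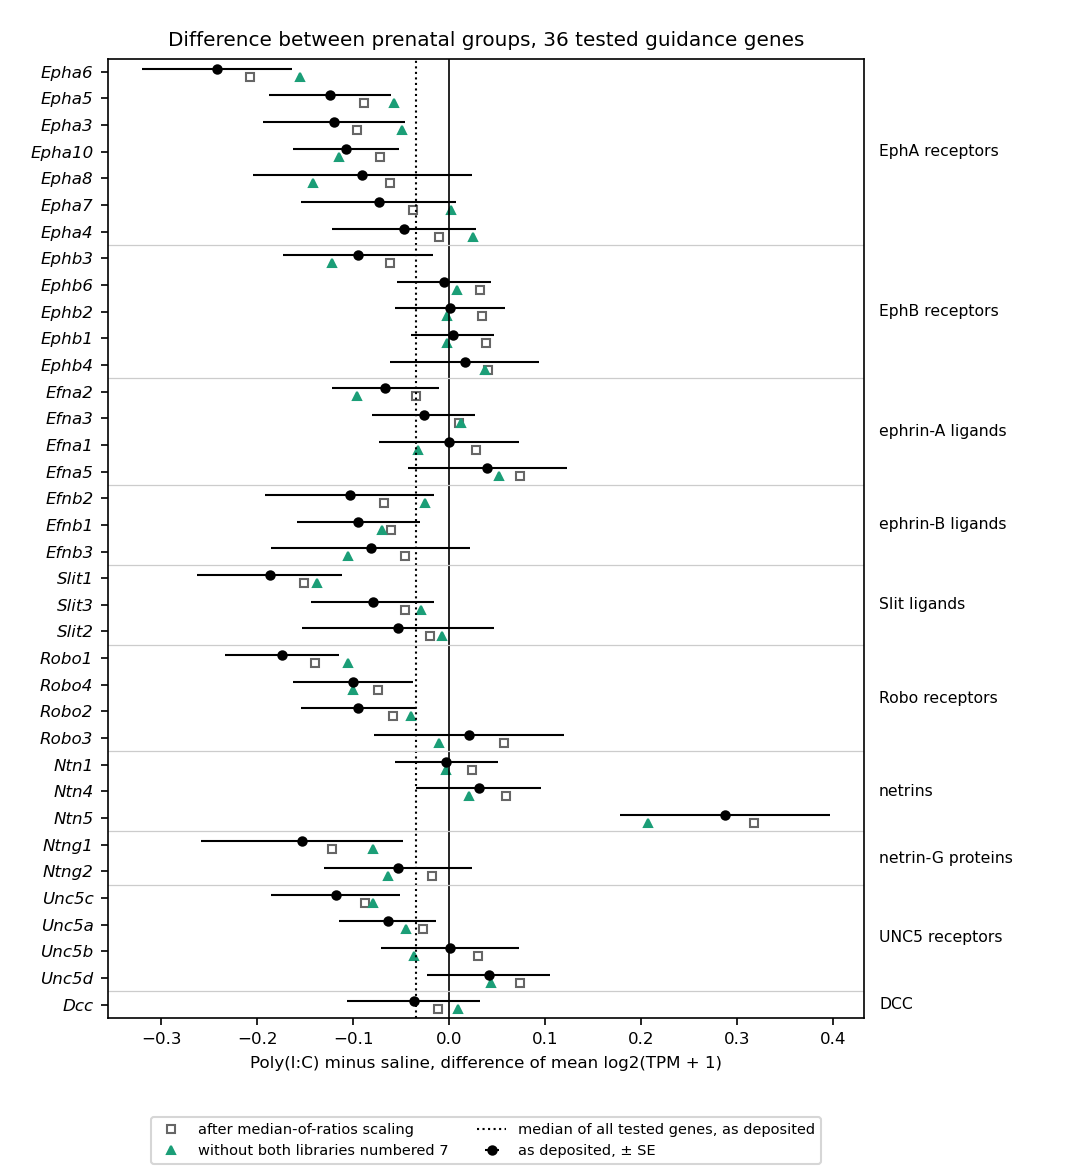
Difference of mean log2(TPM + 1), Poly(I:C) minus saline, for the 36 tested genes by role: black points with SE as deposited, open squares after median-of-ratios scaling and green triangles with replicate 7 of each group left out. All 7 tested EphA receptors lie left of 0 as deposited (71.0% of all tested genes) and 5 of 7 without the libraries numbered 7 (66.6% of all tested genes), and Ntn5 lies farthest right at 0.29.

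All 7 tested EphA receptors had lower means in the Poly(I:C) group before and after median-of-ratios scaling, though 5 of 7 did without both libraries numbered 7, and none passed. Over all tested genes the shares lower were 71.0% as deposited, 50.9% after that scaling and 66.6% without both libraries numbered 7. Epha6, an A-class receptor found mainly in neurons, ran from 5.84 to 10.6 TPM with a median of 8.73 TPM in the Poly(I:C) libraries and from 9.23 to 11.8 TPM with a median of 10.2 TPM in the saline libraries. All but 1 of the 9 Poly(I:C) libraries lay below the saline median, the lowest being replicate 7 at 5.84 TPM, and the highest saline library was replicate 7 at 11.8 TPM. Its difference was -0.24 ± 0.078 (SE), with an unadjusted p of 0.00571 and an adjusted p of 0.486 by limma. Leaving out both libraries numbered 7 gave -0.16 with an unadjusted limma p of 0.0146 and an adjusted p of 0.847. Epha4 stood at 75.0 ± 9.57 TPM (n = 9, SD) and 77.3 ± 8.35 TPM (n = 8, SD). Its difference of -0.047 ± 0.075 (SE) turned to 0.025 without both libraries numbered 7. Epha5 differed by -0.12 and Epha3 by -0.12, values that shrank to -0.057 and -0.050 without those libraries, and Epha7 went from -0.074 to 0.0014. The kinase-inactive Epha10 and Epha8 did not shrink, with -0.11 and -0.091 over all libraries and -0.11 and -0.14 without both libraries numbered 7. Over the 7 receptors the median difference was -0.11 as deposited and -0.057 without those libraries.

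EphB receptors showed no common direction. As deposited 2 of 5 were lower (71.0% of all tested genes), with a median difference of 0.00093. After median-of-ratios scaling 1 of 5 was lower (50.9% of all tested genes). Ephb6 averaged 200.4 ± 16.8 TPM (n = 9, SD) and 201 ± 13.5 TPM (n = 8, SD), a difference of -0.0055 ± 0.049 (SE) that became 0.032 after median-of-ratios scaling. Ephb3, which had the smallest p of the class, stood at 10.4 ± 1.52 TPM (n = 9, SD) and 11.1 ± 1.23 TPM (n = 8, SD). Its difference was -0.095 ± 0.078 (SE) with an adjusted limma p of 0.722. Ephb1, Ephb2, which acts at excitatory synapses, and Ephb4 differed by 0.0035, 0.00093 and 0.016, and by -0.0027, -0.0027 and 0.038 without both libraries numbered 7. Ephb1 varied least of all tested guidance genes, with a coefficient of variation of 5.69% over the 17 libraries.

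Ephrin ligands gave small differences in both classes. Efna3 stood at 75.2 ± 7.45 TPM (n = 9, SD) and 76.4 ± 3.89 TPM (n = 8, SD), a difference of -0.027 ± 0.054 (SE) that became 0.010 with median-of-ratios scaling, and 0.012 if both libraries numbered 7 were left out. The lowest Efna3 library of all was Poly(I:C) replicate 7 at 61.4 TPM. Efna2, at 5.40 ± 0.432 TPM (n = 9, SD) and 5.71 ± 0.535 TPM (n = 8, SD), differed by -0.067 ± 0.056 (SE) with an adjusted limma p of 0.727. Efna5 differed by 0.039, the 1 higher mean of the class, and Efna1 by -0.00041, which was -0.033 without both libraries numbered 7. All 3 ephrin-B ligands, and 71.0% of all tested genes, had lower means in the Poly(I:C) group, though Efnb2 did not when both libraries numbered 7 were left out and median-of-ratios scaling was applied. Efnb2 ran from 17.7 to 29.0 TPM with a median of 25.4 TPM in that group and from 21.4 to 30.97 TPM with a median of 26.9 TPM in the saline group, so that the ranges overlapped over most of their width. Its difference of -0.10 ± 0.088 (SE) shrank to -0.025 without both libraries numbered 7. Efnb1, at 8.07 ± 0.882 TPM (n = 9, SD) and 8.67 ± 0.786 TPM (n = 8, SD), differed by -0.095 ± 0.064 (SE), with an adjusted limma p of 0.668. Efnb3, which also binds Epha4, differed by -0.082, with Poly(I:C) replicate 7 the highest of its group.

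All 3 Slits and 3 of 4 Robo receptors had lower means in the Poly(I:C) group, as did 71.0% of all tested genes, and none of these differences passed. Slit2 turned to 0.017 when both libraries numbered 7 were left out and median-of-ratios scaling was applied, and Robo3 was the receptor with a higher mean. Slit1 ran from 17.3 to 24.7 TPM with a median of 21.2 TPM in the Poly(I:C) libraries and from 20.5 to 28.5 TPM with a median of 23.0 TPM in the saline libraries. The groups overlapped between 20.5 and 24.7 TPM, with 7 of the 9 Poly(I:C) animals below the saline median. The difference was -0.19 ± 0.075 (SE) with an unadjusted p of 0.0221 and an adjusted p of 0.535 by limma. Without both libraries numbered 7 it was -0.14 with an unadjusted limma p of 0.0872, and without saline replicate 1 the unadjusted p was 0.0551. Slit2 and Slit3, the less abundant Slits, differed by -0.054 and -0.080, with adjusted limma p of 0.889 and 0.717. Poly(I:C) replicate 7 was the lowest of its group for both, and without both libraries numbered 7 the differences were -0.0075 and -0.030.

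Robo1, a main receptor for Slits, ran from 6.41 to 9.62 TPM with a median of 8.48 TPM in the Poly(I:C) libraries and from 8.67 to 11.0 TPM with a median of 9.41 TPM in the saline libraries. In all but 1 Poly(I:C) library the level lay below the saline median. Poly(I:C) replicate 7, at 6.41 TPM, was well below the other Poly(I:C) libraries. The difference was -0.17 ± 0.059 (SE) with an unadjusted p of 0.0084 and an adjusted p of 0.486 by limma. Leaving out both libraries numbered 7 gave -0.11 with an unadjusted limma p of 0.0272 and an adjusted p of 0.847. Exact permutation tests (two-sided, enumerating 24310 assignments of libraries to groups) gave unadjusted p of 0.00292 for Robo1, 0.00469 for Epha6, 0.0379 for Slit1 and 0.0278 for Ntn5. Robo2, at 35.1 ± 2.88 TPM (n = 9, SD) and 37.7 ± 3.89 TPM (n = 8, SD), differed by -0.095 ± 0.060 (SE), or -0.040 without both libraries numbered 7. Robo3 differed by 0.021, which became -0.011 without both libraries numbered 7. Endothelial Robo4 was under the median of the saline group in 8 of 9 Poly(I:C) animals, with a difference of -0.10 and an adjusted limma p of 0.643. The summed TPM of 5 endothelial markers ran from 40.5 to 61.0 in the Poly(I:C) group and from 48.7 to 57.7 in the saline group, and its part in the Robo4 values was not tested.

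**Figure D3:**
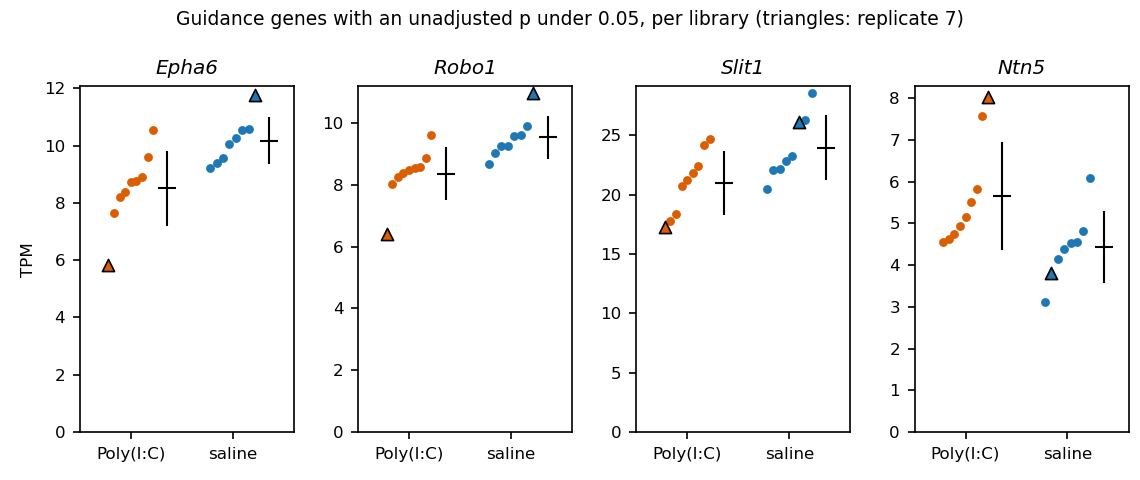
TPM per library of the 4 genes with an unadjusted limma p under 0.05 (linear axes from 0), Poly(I:C) in orange and saline in blue, sorted within each group, with group mean and SD as a bar and replicate 7 of each group as a triangle. Poly(I:C) replicate 7 is the lowest of its group for Epha6, Robo1 and Slit1 and the highest for Ntn5, and the groups overlap in all 4 panels.

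Among netrins, Ntn5 was higher in the Poly(I:C) group without passing, and Ntn1 and Ntn4 had small differences of -0.0031 and 0.030, the second 0.020 without both libraries numbered 7 and the first 0.023 after median-of-ratios scaling. Ntn5 ran from 4.55 to 8.04 TPM with a median of 5.15 TPM in the Poly(I:C) libraries and from 3.11 to 6.09 TPM with a median of 4.46 TPM in the saline libraries. All 9 Poly(I:C) libraries lay above the saline median, and replicate 7 was the highest at 8.04 TPM. The difference was 0.29 ± 0.11 (SE) with an unadjusted p of 0.0162 and an adjusted p of 0.51 by limma. Without both libraries numbered 7 it was 0.21 with an unadjusted limma p of 0.0639. Ntn5 was also the most variable of the tested guidance genes, with a coefficient of variation of 24.5% over the 17 libraries, beside a median of 12.2% over the 36 genes and 9.73% over all tested genes.

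None of the netrin receptors and netrin-G proteins passed. Dcc stood at 2.12 ± 0.258 TPM (n = 9, SD) and 2.21 ± 0.324 TPM (n = 8, SD), a difference of -0.037 ± 0.069 (SE) that was 0.0089 without both libraries numbered 7. Unc5a, at 101 ± 8.38 TPM (n = 9, SD) and 105 ± 7.41 TPM (n = 8, SD), differed by -0.064 ± 0.051 (SE) with an adjusted limma p of 0.712. Unc5d and Unc5b, also repellent netrin receptors, differed by 0.041 and 0.00062, and by 0.044 and -0.037 without both libraries numbered 7. Unc5c ran from 3.54 to 4.41 TPM with a median of 3.96 TPM in the Poly(I:C) libraries, all 9 of which lay below the saline median. Saline values of Unc5c were more spread, from 3.61 to 5.37 TPM with a median of 4.46 TPM, and the difference of -0.12 ± 0.067 (SE) had an adjusted limma p of 0.618. Ntng1, at 4.36 ± 0.660 TPM (n = 9, SD) and 5.03 ± 1.27 TPM (n = 8, SD), differed by -0.15 ± 0.11 (SE), or -0.079 without both libraries numbered 7. Saline replicate 7 had the highest Ntng1 level of all libraries, at 7.77 TPM. Ntng2, at 18.1 ± 2.72 TPM (n = 9, SD) and 18.7 ± 1.53 TPM (n = 8, SD), differed by -0.053 ± 0.077 (SE) with an adjusted limma p of 0.85.

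Several receptors had their extreme values in the 2 libraries that stood apart. Epha3, Epha4, Epha5, Epha6, Epha7, Robo1 and Robo2 each had their lowest Poly(I:C) value in replicate 7 and their highest saline value in replicate 7. These were 7 of 36 guidance genes, or 19.4%, beside 3.73% of all tested genes. Poly(I:C) replicate 7 was the lowest of its group for 13 of the 36 (12.4% of all tested genes) and the highest for 8, namely Epha8, Ephb1, Efna1, Efna2, Efnb3, Ntn4, Ntn5 and Unc5b (14.8% of all tested genes). Saline replicate 7 was the highest of its group for 11 (30.8% of all tested genes). Epha5, for instance, stood at 19.8 TPM in Poly(I:C) replicate 7 and 30.9 TPM in saline replicate 7, where the group medians were 22.9 and 24.7 TPM. Epha4 stood at 61.1 and 92.3 TPM in the same libraries, with medians of 74.6 and 77.5 TPM. The part of striatal, oligodendrocyte and olfactory bulb tissue in these values, whose markers were high in the same libraries, was not tested. Without both libraries 26 of the 36 guidance genes were lower (72.2%, beside 66.6% of all tested genes), with a median difference of -0.035 beside -0.025 over all tested genes.

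**Figure D4:**
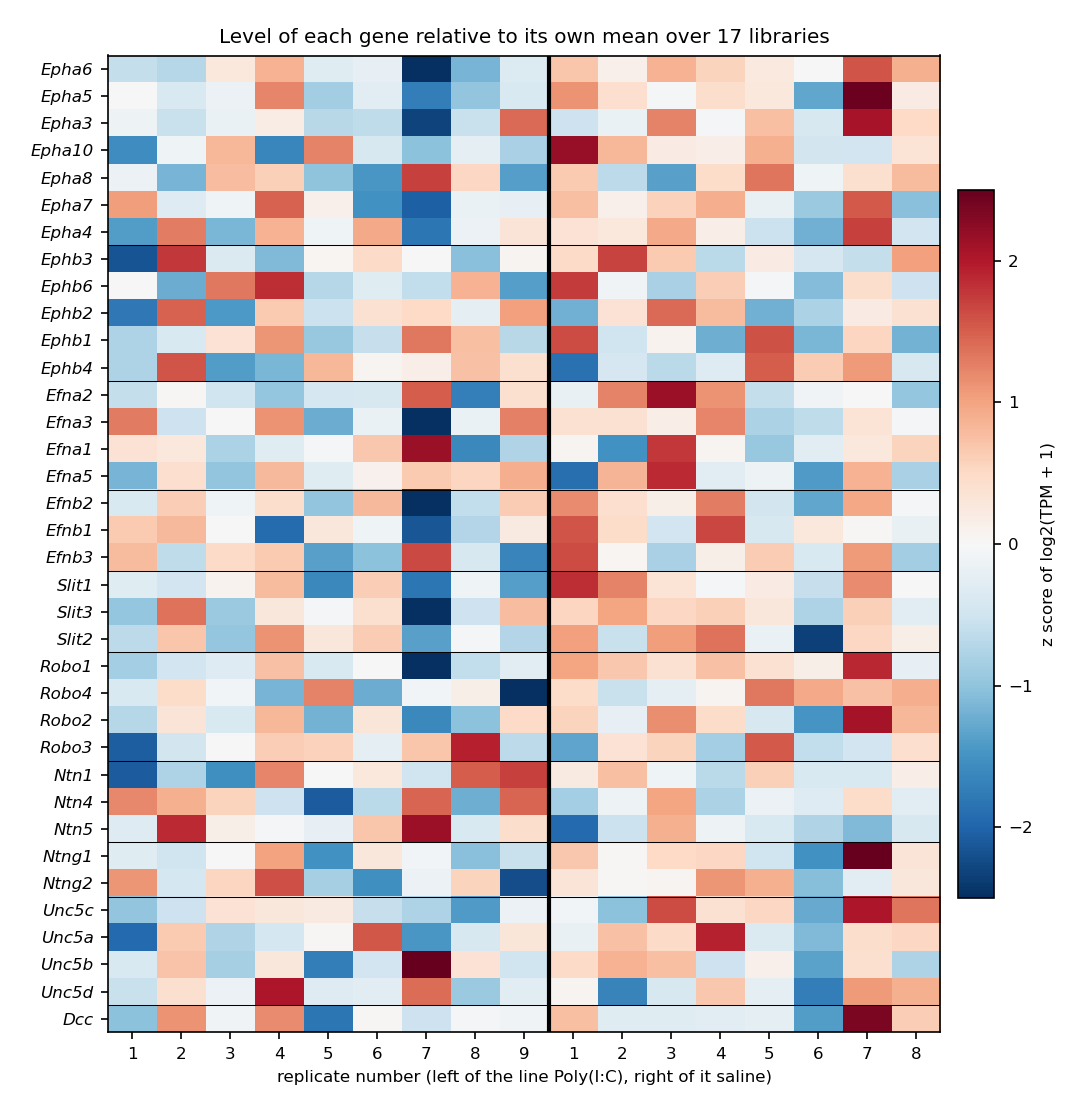
Level of each tested gene in each library as a z score of log2(TPM + 1) over the 17 libraries (colour, clipped at 2.5 in either direction), with Poly(I:C) libraries left and saline libraries right of the vertical line. Column 7 on the left is blue and column 7 on the right red for Epha3 to Epha7, Robo1 and Robo2, while the remaining columns mix both colours in each group.

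The genes with the smallest p lie on several chromosomes of the mouse assembly GRCm38 and are all annotated as protein-coding. Epha6 (ENSMUSG00000055540.15) lies on chromosome 16 from 59653483 to 60605531, Robo1 (ENSMUSG00000022883.10) on chromosome 16 from 72308306 to 73046095, Slit1 (ENSMUSG00000025020.11) on chromosome 19 from 41600257 to 41743665 and Ntn5 (ENSMUSG00000070564.15) on chromosome 7 from 45684022 to 45694556. Ephb6 (ENSMUSG00000029869.7) occupies chromosome 6 from 41605482 to 41620509. Of the 36 tested genes, Ntng2 alone shares its locus with a second annotated gene that averaged 1 TPM or more, 6530402F18Rik on its own strand at 5.54 TPM, and how their reads were divided is not known.

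Promoter windows of 4 genes are shown because these genes stand at the ends of the data: Epha6 and Ntn5, with the smallest p in each direction, and Ephb6 and Epha1, the highest and lowest in level. Each holds 250 bases before and 50 after a RefSeq gene start on GRCm38.p6, read 5′ to 3′ on the gene's strand, with every CG dinucleotide in capitals. CG reads the same on both strands.
Epha6, chr16:60605482-60605781, minus strand: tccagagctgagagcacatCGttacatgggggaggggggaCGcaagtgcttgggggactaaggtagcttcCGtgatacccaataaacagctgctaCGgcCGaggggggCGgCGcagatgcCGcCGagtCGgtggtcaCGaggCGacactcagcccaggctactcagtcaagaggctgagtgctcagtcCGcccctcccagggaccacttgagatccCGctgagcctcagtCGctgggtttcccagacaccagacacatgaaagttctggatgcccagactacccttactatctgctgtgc
Ntn5, chr7:45683772-45684071, plus strand: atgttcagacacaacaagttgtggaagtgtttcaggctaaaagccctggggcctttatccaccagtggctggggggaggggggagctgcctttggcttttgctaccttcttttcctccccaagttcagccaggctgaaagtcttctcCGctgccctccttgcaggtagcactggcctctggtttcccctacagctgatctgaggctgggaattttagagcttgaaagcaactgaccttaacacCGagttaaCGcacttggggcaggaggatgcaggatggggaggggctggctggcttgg
Ephb6, chr6:41605261-41605560, plus strand: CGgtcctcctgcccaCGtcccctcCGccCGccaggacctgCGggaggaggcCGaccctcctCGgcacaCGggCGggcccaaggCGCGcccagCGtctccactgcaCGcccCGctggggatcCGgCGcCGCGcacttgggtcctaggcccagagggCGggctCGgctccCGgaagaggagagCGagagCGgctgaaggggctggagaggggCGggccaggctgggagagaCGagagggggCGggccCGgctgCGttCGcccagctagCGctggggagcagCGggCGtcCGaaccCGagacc
Epha1, chr6:42373219-42373518, minus strand: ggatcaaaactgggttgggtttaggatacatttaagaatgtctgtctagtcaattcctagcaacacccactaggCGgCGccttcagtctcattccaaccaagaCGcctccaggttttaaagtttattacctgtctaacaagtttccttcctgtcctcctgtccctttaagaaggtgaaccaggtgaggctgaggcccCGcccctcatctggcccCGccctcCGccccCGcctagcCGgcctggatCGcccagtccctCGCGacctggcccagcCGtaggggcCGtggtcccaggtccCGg
The Ephb6 window holds 34 CG dinucleotides, a count that 7.73% of all 32851 RefSeq windows of this length reach. Epha6 has 15, reached by 34.6% of windows, and the barely detected Epha1 has 14, reached by 36.3%. Ntn5 differs from these with 3, a count that 76.7% of windows reach. Over the 39 windows matched to 34 of the guidance genes by symbol the median CG count was 21, against 7 over all windows, 94.6% of which hold at least 1 CG. The set of all windows was not limited to genes tested here, so whether 21 is high among expressed genes was not tested. Windows of guidance genes at or above 10 TPM had a median of 23 and those of guidance genes below it 19. The same split over all genes is not given.

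Genes that carry the signals of these receptors were read from a list of 64 chosen by their known roles, of which 62 were tested. By limma, 0 of the 62 passed an adjusted p of 0.05, and 4 were under 0.05 before adjustment, all of them lower in Poly(I:C) offspring before any scaling. These 4 were 6.45% of the list, beside 8.75% of all tested genes under that p and 7.85% under it and lower. After median-of-ratios scaling 4 were again under 0.05 before adjustment, with Abl2 lower and Rasa1, Rgma and Chn1 higher. The median difference was -0.035 with 50 of 62 lower (80.6%) as deposited, beside a median of -0.035 and 71.0% lower over all tested genes. It was -0.0017 with 32 of 62 lower (51.6%) after median-of-ratios scaling, beside -0.0014 and 50.9%. The 4 lower genes as deposited were Srgap2, a GTPase-activating protein that binds Robo receptors, the kinase Abl2, the scaffold Pick1, which binds Eph receptors, and Maged1, which binds UNC5A. Srgap2 stood at 31.8 ± 1.64 TPM (n = 9, SD) and 34.1 ± 1.77 TPM (n = 8, SD), a difference of -0.098 ± 0.038 (SE) with an adjusted limma p of 0.53. Abl2 differed by -0.13, Pick1 by -0.16, Maged1 by -0.10, Ndfip1 by -0.10 and Grip1 by -0.12. Without both libraries numbered 7 these were -0.081 for Abl2, -0.14 for Pick1, -0.062 for Maged1, -0.065 for Ndfip1 and -0.060 for Grip1. Higher in mean, also without passing, were Rasa1, a Ras GTPase-activating protein, by 0.16, the neogenin ligand Rgma by 0.082 and Chn1, a GTPase-activating protein in Epha4 signalling, by 0.074. Chn1 was the most abundant of the list at 645 and 613 TPM. The count of 4 was not stable: it ran from 1 without Poly(I:C) replicate 7 to 10 without saline replicate 6 or 8. It was 2 without Poly(I:C) replicate 1, without saline replicate 7 or without both libraries numbered 7 (Srgap2 and Rasa1 in this last case). It was 7 without Poly(I:C) replicate 2 and 8 without Poly(I:C) replicate 4. The count over all 14144 tested genes moved as well, from 843 to 1710 with a library left out. It was 12.1% of them without saline replicate 6 and 5.79% without both libraries numbered 7. For the other left-out libraries the share of all tested genes is not given. The counts of the list in those settings therefore show instability only and are not set against a background.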

How the data were processed

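TPM per gene, with 2 decimals, is what the authors deposited for 17 strand-specific libraries of polyadenylated RNA. The submitters' processing notes name the assembly mm10, RSEM 1.2.31, STAR 2.5.1b and Trim Galore 0.4.0. No source used here gives the annotation release or filters. Identifiers without their version suffix matched a symbol for 48058 of 48440 genes. Coordinates came from GENCODE M21 on GRCm38, an annotation that may not be the one behind the table.

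Genes with at least 1 TPM in at least 8 libraries, 14144 in all, entered a limma 3.58.1 model under R 4.3.3 on log2(TPM + 1), with lmFit and a trended eBayes. Its p are two-sided and were adjusted by Benjamini-Hochberg over all of them. The fit was tested on simulated data. Python 3.11.15, numpy 2.4.6, pandas 2.3.3 and matplotlib 3.10.9 did the rest. The members, lists, rules and alternatives were chosen with earlier results of these data known. Given in full were the most abundant gene and the gene with the smallest p of each role, any gene under an unadjusted p of 0.05, and of the signalling list the 8 with the smallest p and the most abundant of each part. Epha3, Epha5 and Epha7 were described after their values were seen. Alternatives covered the scaling (median-of-ratios, quantile, upper-quartile), the filter (none, or a minimum of 5 TPM), the pseudocount (0.1, 0.5), robust eBayes, a replicate block and left-out libraries. Leaving out both libraries numbered 7 together with median-of-ratios scaling was chosen after seeing the data.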

Additional observations from a re-analysis of the deposited data

Results flagged for a closer look

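Of 72 groups of values examined (36 genes in each prenatal group), 2 held a library with a gap to its nearest neighbour above Dixon's 95% critical value, and chance alone flags about 1 in 20 groups. Robo1 was measured at 6.41 TPM in Poly(I:C) replicate 7, with the next lowest Poly(I:C) library at 8.04 TPM. Ntng1 was measured at 7.77 TPM in saline replicate 7, with the next highest saline library at 5.26 TPM. Both are the libraries in which striatal and oligodendrocyte or olfactory bulb markers were highest.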

How the results depend on the processing

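No guidance gene and no gene of the signalling list passed an adjusted p of 0.05 under any of the 28 alternatives. Over all genes, limma called 0 as deposited, 2 after median-of-ratios scaling, 2 with the replicate block, 0 to 1 with a library left out (1 without saline replicate 4) and 1 with median-of-ratios scaling without both libraries numbered 7. Genes under an unadjusted p of 0.05 numbered 1237, with 843 to 1710 when a library was left out, 819 without both libraries numbered 7 and 758 with median-of-ratios scaling as well. Guidance genes under that p numbered 4, or 2 without both libraries numbered 7 and 3 to 9 with a library left out. For the signalling list the count was 4, or 2 and 1 to 10 under the same changes. The number of lower guidance genes was 27 of 36 (75.0%, beside 71.0% of all tested genes). It was 24 to 30 when a library was left out, settings for which the share of all tested genes is not given. Adjusted p over the alternatives ran from 0.315 to 0.904 for Epha6, 0.322 to 0.904 for Robo1, 0.338 to 0.907 for Slit1 and 0.385 to 0.904 for Ntn5, which all kept their sign. Small differences changed sign, and the cause was not tested. Ephb6 turned to 0.032 with median-of-ratios, 0.023 with quantile and 0.030 with upper-quartile scaling. It was 0.0084 without both libraries numbered 7, 0.036 with median-of-ratios scaling as well, and -0.030 to 0.020 with a library left out. Efna3 turned to 0.010, 0.0036 and 0.0087 under the same 3 scalings. Without both libraries numbered 7 it was 0.012, with median-of-ratios scaling as well 0.039, and with a library left out -0.047 to 0.0083. Without both libraries numbered 7, as deposited and with median-of-ratios scaling, the differences were 0.025 and 0.052 for Epha4, 0.0014 and 0.028 for Epha7 and 0.0089 and 0.027 for Dcc, which ran from -0.065 to 0.0027 with a library left out. Efnb2 was 0.0018, Slit2 0.017 and Ntn1 0.017 under both changes together. Under median-of-ratios, quantile and upper-quartile scaling Efna1 was 0.028, 0.041 and 0.027 and Ntn1 0.023, 0.037 and 0.022. Without both libraries numbered 7, Ephb1 was -0.0027, Ephb2 -0.0027, Robo3 -0.011 and Unc5b -0.037. Unc5b was -0.015 with median-of-ratios scaling as well and -0.00059 with a pseudocount of 0.1. With a library left out, further differences that spanned 0 were -0.038 to 0.035 for Efna1, -0.0056 to 0.090 for Efna5, -0.0095 to 0.022 for Ephb1, -0.019 to 0.025 for Ephb2, -0.022 to 0.050 for Ephb4, -0.020 to 0.017 for Ntn1, -0.032 to 0.079 for Robo3 and -0.045 to 0.031 for Unc5b.

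The libraries gave no sign of pairing by replicate number, though low correlations cannot exclude a shared litter or batch. Correlations of same-numbered libraries' deviations from their group means ran from -0.22 to 0.082 over 8 pairs, and 1 of 8 Poly(I:C) libraries correlated best with its own number. With the replicate block 3 guidance genes and 4 genes of the signalling list lay under an unadjusted p of 0.05 (8.33% and 6.45%, beside 8.34% of all tested genes). Ephb6 turned to 0.012, Efna1 to 0.013 and Ephb2 to -0.013. TPM keeps no depth, so no detection limit can be given for the genes below 1 TPM.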

Other observations

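The block of 7 receptors that were lowest in Poly(I:C) replicate 7 and highest in saline replicate 7 consists of genes with long genomic spans. Of the 36 tested guidance genes, 19 span 100 kb or more, and all 7 are among them (36.8%), while 0 of the 17 shorter guidance genes had this pattern. Among the other 2079 tested genes of 100 kb or more, 143 had it (6.88%), against 377 of 11999 shorter genes (3.14%). With 17 shorter guidance genes, 0 cannot be told apart from that 3.14%. The median difference between the prenatal groups was -0.037 for all tested genes of 100 kb or more and -0.035 for shorter ones. The 19 long guidance genes had a median difference of -0.074 with all libraries and -0.0075 without both libraries numbered 7, and the 17 shorter ones -0.064 and -0.045. The split at 100 kb was chosen after seeing the data, so the contrast of long and shorter guidance genes is no test of span. The 7 receptors were picked by their values in the libraries numbered 7, so leaving these libraries out favours a median nearer 0 for the long set. The other 2079 tested genes of 100 kb or more had medians of -0.037 with all libraries and -0.021 without both libraries numbered 7.

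Of the 7, Epha3, Epha6, Robo1 and Robo2 lie in 1 stretch of chromosome 16, from 59653483 to 74411825 on GRCm38. The stretch was drawn around these 4 genes after seeing the data. Of the other 11 tested genes inside it 0 had the pattern, beside 3.73% of all tested genes. With 11 genes, 0 cannot be told apart from that share. Lower means in the Poly(I:C) group were found for 7 of the 11 (63.6%), beside 71.0% of all tested genes. Their median difference was -0.032, beside -0.035 over all tested genes.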
